A study of Mus musculus with 31 samples.

Results

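The genes of the major histocompatibility complex (MHC) of the mouse, named H2, were examined in the open chromatin of NIH-3T3 cells. Members were the protein-coding genes of chromosome 17 whose symbols begin with H2- in the GENCODE M21 annotation of mm10, together with Tap1, Tap2, Tapbp, B2m, Nlrc5, Ciita and Cd74. This rule uses names and positions only and gave 41 of the 21938 protein-coding genes. Of these, 24 encode class I heavy chains or relatives, 9 encode class II chains, 7 load peptide or regulate MHC genes, and 1, H2-Ke6, lies among them but encodes a steroid dehydrogenase. A gene was counted as having a promoter peak when an ATAC-seq peak lay within 1 kb of a transcription start site (TSS) of any of its transcripts.

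Class I molecules present peptides made in the cytosol on nearly all nucleated cells. A polymorphic heavy chain pairs with beta-2-microglobulin (B2m) and is filled in the endoplasmic reticulum, where the TAP transporter brings in the peptides and tapasin (Tapbp) holds the empty molecule. Class II molecules, made of an alpha and a beta chain, present peptides from endosomes, are guarded by the invariant chain Cd74 and edited by DM, and are made constitutively by antigen-presenting cells, whereas fibroblasts make them mainly after interferon gamma. The transactivators Nlrc5 and Ciita drive class I and class II genes, respectively, without binding DNA themselves. They are recruited to promoters by a complex of RFX, CREB and NF-Y proteins over adjacent short sequences.

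The values come from 1 library of the parental NIH-3T3 line, mouse embryo fibroblasts that carry no transcription factor (TF) transgene. NIH-3T3 was derived from Swiss mice, while the reference genome is that of C57BL/6J, and MHC haplotypes differ in sequence and in the number of class I genes. The haplotype of the line is not given in the sources used here, and a strain difference as a part of any missing peak was not tested. The other 30 samples of the series, from lines that overexpress 1 of 13 TFs or carry the rtTA3G activator alone, were not analysed here. Doxycycline does not appear in the labels of the parental line, although the methods describe its use (500 ng ml-1, 48 h) on NIH-3T3 cells without exempting that line. ATAC-seq cuts and tags DNA that nucleosomes leave free with the transposase Tn5, here 0.5 µM on 50000 cells. With 1 library there is no replicate and no test between samples, and a site open in few cells and a site weakly open in all cells cannot be told apart.

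The list held 63456 peaks. Each has a fold enrichment, which is the fragment pileup at its summit divided by the pileup that the peak caller expected there, each with 1 added. The number of fragments behind a summit was solved from this ratio and the −log10 p of the peak, and was whole within 0.02 for 99.997% of peaks. The lowest summit in the list held 10 fragments, so a gene without a peak is one whose promoter did not pass the caller at this depth, and not one shown to be closed. Of 8 fibroblast marker genes, all had a promoter peak (fold enrichment 3.41 at Thy1 to 10.5 at Fn1). Of 8 markers of blood and antigen-presenting cells, 2 had one (Spi1 3.22 and Csf1r 5.68), and those without one included Ptprc, Itgam, Itgax and Flt3. Of 5 epithelial markers, Krt14 (7.07) and Krt8 (3.25) had one.

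A promoter peak was found for 16 of the 41 members (39.0%), beside 53.7% of all protein-coding genes and 53.1% of those on chromosome 17. Class I genes had one in 7 of 24 cases (29.2%), class II genes in 4 of 9 (44.4%) and the loading and regulator genes in 4 of 7 (57.1%). Among these subgroups, both classical class I genes, H2-K1 and H2-D1, and all 4 class I loading genes (B2m, Tap1, Tap2 and Tapbp) had a peak, while Nlrc5, Ciita and Cd74 had none. The 24 distinct promoter peaks of members were lower and narrower than the 13923 promoter peaks of all coding genes. Their median fold enrichment was 5.22 against 8.35, their median width 346 bp against 681 bp, and their median summit 27.5 fragments against 52. Taking the highest peak of each gene, the median was 6.41 over the 16 members with a peak and 9.86 over all coding genes with one, whose quartiles were 7.27 and 12.4. The class medians were 5.64 for class I, 7.59 for class II and 8.93 for the loading genes. Of the 24 peaks, 5 also lay within 1 kb of the TSS of another coding gene.

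**Figure D1:**
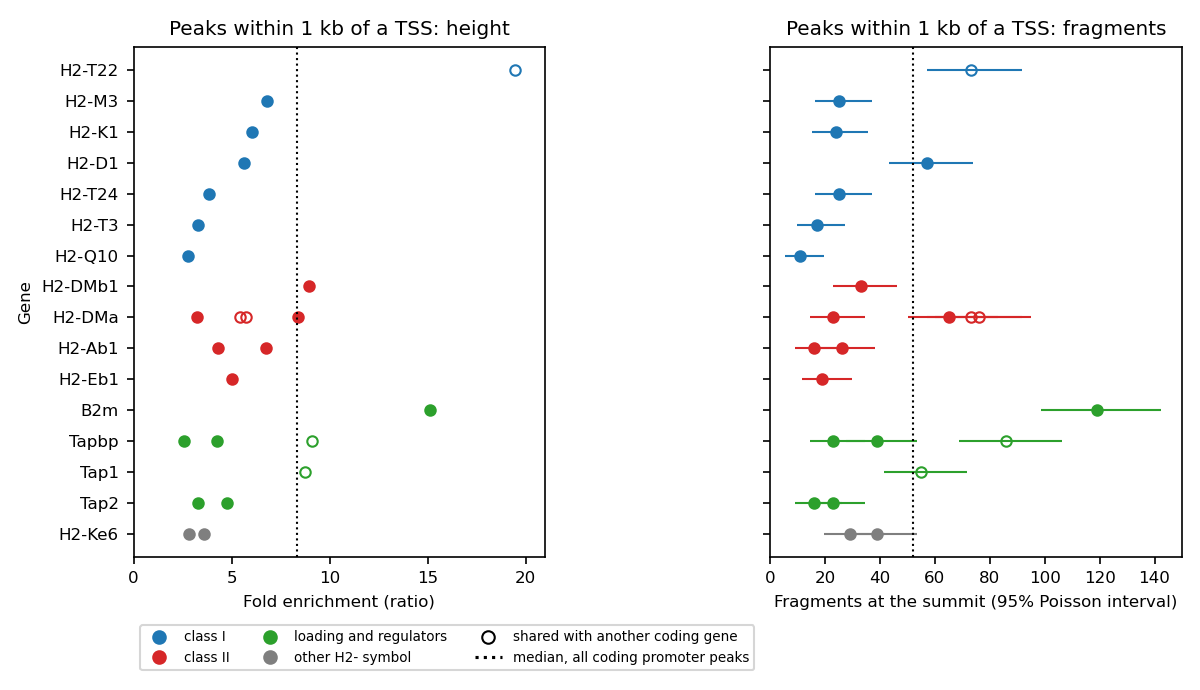
Promoter peaks of the 16 members that have one, with the fold enrichment of each peak (left) and the fragments at its summit with 95% Poisson intervals (right). Open circles are peaks shared with another coding gene and dotted lines are the medians over all coding promoter peaks, 8.35 and 52 fragments; B2m and H2-T22 stand far to the right of the line for fold enrichment, and most other members lie to its left.

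CpG-rich promoters are open in most cell types, so the classes were also read beside genes of like CpG content. The CpG ratio, the observed over the expected number of CpG within 500 bp of the gene start, had a median of 0.229 over members and 0.552 over all coding genes. Of all coding genes with a ratio of 0.6 or below, 29% had a promoter peak, and of those over 0.6, 82.8%. Taking the highest peak of each gene, their median fold enrichments were 8.40 and 10.3, respectively. Members with a peak, CpG-poor and CpG-rich together, had 6.41. Among the 30 CpG-poor members, 9 (30%) had a peak, which is near the share of all such genes. They comprised 5 of 18 class I genes (27.8%), 3 of 8 class II genes (37.5%) and 1 of 4 loading and regulator genes (25%). Among the 11 CpG-rich members, 7 had a peak, and the 4 without one were all Q genes of class I, namely H2-Q2, H2-Q4, H2-Q6 and H2-Q7. Of the 6 CpG-rich class I genes, 2 had a peak, H2-K1 and H2-Q10, whereas Tapbp, Tap1 and B2m all did. At the starts of H2-Q6 and H2-Q7, only 39.3% and 70.3% of 75-base sequences were found once in the genome. The H2-Q10 peak held 11 fragments and lay 907 bp from the nearest TSS. The best Tapbp peak is shared with Zbtb22 and the Tap1 peak with Psmb9.

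**Figure D2:**
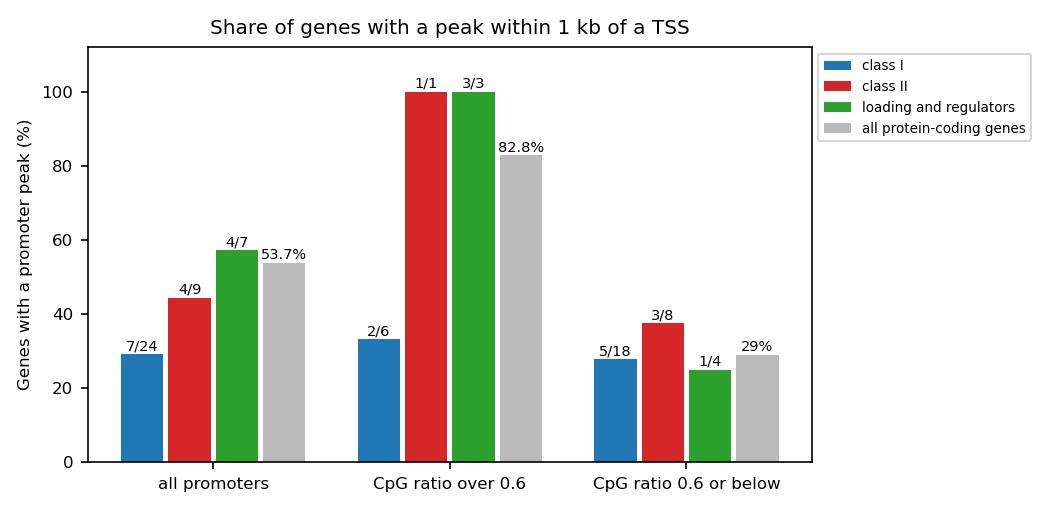
Share of genes with a peak within 1 kb of a TSS, in percent, for class I, class II, loading and regulator genes and all protein-coding genes, over all promoters and split at a CpG ratio of 0.6, with counts above the bars. Among CpG-poor promoters each class stands within a few genes of the 29% background, and among CpG-rich ones class I has 2 of 6 beside 82.8%.

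The classical class I genes encode the polymorphic heavy chains that present peptides to cytotoxic T cells. H2-K1 (chr17:33996017-34000347, minus strand) had 1 peak at chr17:34000237-34000601. Its fold enrichment was 6.06 and its −log10 q 11.6, with a summit of 24 fragments (95% Poisson interval 15.4 to 35.7) against 3.13 expected. Its summit lay 6 bp inside the first exon. H2-D1 (chr17:35262730-35267499, plus strand) had 1 peak of 784 bp at chr17:35262717-35263500. It reached 5.64 in fold enrichment and 23.4 in −log10 q, and its summit held 57 fragments (43.2 to 73.9) against 9.29 expected. The fold enrichments were close while the fragment intervals did not overlap, the expected pileup being higher at H2-D1. Both stood in the lower part of the coding promoter peaks, at the percentiles 31.5 and 27.9 by fold enrichment. The H2-D1 summit lay inside the GENCODE gene and 108 bp before the start of the RefSeq transcript.

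The promoters of 4 class I genes are shown to set those under a peak beside a relative without one. They are RefSeq windows on GRCm38.p6, the assembly of mm10, from 250 bases before to 50 after the transcript start, read 5′ to 3′ on the strand of the gene. H2-K1 is chr17:34000298-34000597 on the minus strand, H2-D1 is chr17:35262844-35263143 on the plus strand, H2-Q4 is chr17:35379367-35379666 on the plus strand and H2-T22 is chr17:36042693-36042992 on the minus strand. Capitals mark the short sequences searched on both strands: GGGATTCCC, a form of the NF-kappaB site known from the class I enhancer, TGACG, the core of a CREB site, ATTGG, the NF-Y core that reads CCAAT on the other strand, CTGATTGG, the Y box that holds it and reads CCAATCAG on the other strand, and GAAANNGAA, a form of the site for interferon regulatory factors.
H2-K1: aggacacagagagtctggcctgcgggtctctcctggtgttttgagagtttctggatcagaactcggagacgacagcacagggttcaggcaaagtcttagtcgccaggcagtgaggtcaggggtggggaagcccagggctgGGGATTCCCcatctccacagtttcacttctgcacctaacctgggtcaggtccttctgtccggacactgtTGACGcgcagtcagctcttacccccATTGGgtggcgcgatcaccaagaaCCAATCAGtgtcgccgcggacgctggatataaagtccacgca
H2-D1: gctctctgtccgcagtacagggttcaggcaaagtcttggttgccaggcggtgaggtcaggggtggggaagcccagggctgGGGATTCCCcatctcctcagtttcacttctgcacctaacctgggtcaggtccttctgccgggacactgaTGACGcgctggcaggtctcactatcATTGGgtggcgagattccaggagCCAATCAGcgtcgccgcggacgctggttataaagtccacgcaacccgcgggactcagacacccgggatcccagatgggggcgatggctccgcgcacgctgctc
H2-Q4: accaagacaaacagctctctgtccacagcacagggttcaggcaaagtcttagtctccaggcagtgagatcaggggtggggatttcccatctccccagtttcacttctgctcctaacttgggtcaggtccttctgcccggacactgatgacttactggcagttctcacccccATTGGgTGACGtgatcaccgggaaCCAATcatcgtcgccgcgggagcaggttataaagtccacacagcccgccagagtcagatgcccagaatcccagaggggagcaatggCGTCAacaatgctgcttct
H2-T22: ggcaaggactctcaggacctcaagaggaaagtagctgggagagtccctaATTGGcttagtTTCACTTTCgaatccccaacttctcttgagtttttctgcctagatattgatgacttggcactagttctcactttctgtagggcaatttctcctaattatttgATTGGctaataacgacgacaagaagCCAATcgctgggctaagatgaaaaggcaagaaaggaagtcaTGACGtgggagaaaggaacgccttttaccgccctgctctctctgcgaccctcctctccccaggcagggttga
In H2-K1 and H2-D1 the first bases of GGGATTCCC and TGACG were 69 bases apart in both genes, and those of TGACG and CCAATCAG were 49 and 48 bases apart. CCAATCAG began 8 bases after the annotated start in H2-K1 and 53 before it in H2-D1. Distances from the annotated start are therefore not alike for these genes. All 300 bases of both windows lay under the peak. The H2-Q4 window held TGACG and CCAAT but neither the exact GGGATTCCC nor the whole Y box, and none of its bases lay under a peak. Before catctcc, where H2-K1 and H2-D1 have GGGATTCCC, it reads gggatttcc, and such near forms were not counted. Its TGACG lay between ATTGG and CCAAT, whereas that of H2-K1 and H2-D1 lay before ATTGG. Of the H2-T22 window 297 bases were covered.

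By fold enrichment, the highest peak of any member was that of H2-T22, a T-region class I gene whose product is known as a ligand of gamma-delta T cells. It lay at chr17:36042696-36043143 and was 19.4-fold enriched with a −log10 q of 71.8, from 73 fragments (57.2 to 91.8) against 2.81 expected. By fold enrichment it was higher than 99.6% of coding promoter peaks. More fragments lay at the summits of B2m (119), Tapbp (86) and an H2-DMa peak (76), and the median over coding promoter peaks was 52. The H2-T22 summit lay 74 bp before the gene start, between genes, and within 1 kb of a start of the predicted coding gene Gm6034. H2-M3, which presents N-formylated peptides of bacteria and mitochondria, had a peak at chr17:37270106-37270432 with a fold enrichment of 6.83 and 25 fragments (16.2 to 36.9), its summit 36 bp before the gene start.

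The remaining class I peaks were small. H2-T24 had a peak at chr17:36020447-36020752 with a fold enrichment of 3.83 and 25 fragments, 173 bp before the gene start, in an intron of the noncoding gene A930015D03Rik. H2-T3, which encodes the thymus leukemia antigen, had one 618 bp inside the gene with a fold enrichment of 3.27 and 17 fragments. H2-Q10, known for a soluble class I molecule made in liver, had one 907 bp from the nearest TSS with a fold enrichment of 2.76 and 11 fragments (5.49 to 19.7), which is close to the lowest summit in the list. Its −log10 q was 1.67. H2-T23, which encodes Qa-1, the ligand of NKG2 receptors, had no promoter peak, and its nearest peak was 2239 bp away with a fold enrichment of 7.88 and 29 fragments.

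By region, a peak was found for 1 of 6 Q genes, 3 of 4 T genes and 1 of 12 M genes. The 17 class I genes without a promoter peak lay 2.24 to 239 kb from their nearest peak, with a median of 22.9 kb. H2-Q1 and H2-Q2 shared a nearest peak at 8677 and 30514 bp. H2-Q4 was 39170 bp from one, and H2-Q6 and H2-Q7 were 4221 and 18526 bp from one. Among the M genes, whose M10 family is known from vomeronasal sensory neurons, 7 lay in a single stretch of 483 kb without any peak, chr17:36303200-36786553. These were H2-M10.1, H2-M10.3, H2-M10.4, H2-M11, H2-M9, H2-M1 and H2-M10.5. The stretch ranked 31 in length among 2483 intervals between peaks on chromosome 17. H2-M2 lay in a longer one of 725 kb that held 31 coding genes. The nearest peaks of H2-M10.2, H2-M5 and H2-M10.6 were 4713, 7600 and 11848 bp away.

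Among the class II genes, 4 were grouped with the classical molecules I-A and I-E, namely H2-Ab1, H2-Aa, H2-Eb1 and H2-Eb2. Of these, 2 had a peak, H2-Ab1 and H2-Eb1. H2-Ea-ps is annotated as a polymorphic pseudogene and so fell outside the protein-coding rule. H2-Eb1, the beta chain of I-E, had a peak of 176 bp at chr17:34305738-34305913 whose fold enrichment was 5.00 from 19 fragments (11.4 to 29.7) against 3.00 expected. Its −log10 q was 7.73, and its summit lay 41 bp before the gene start. H2-Ab1, the beta chain of I-A, had no peak on its first TSS. It had one at chr17:34257849-34258320, 160 bp downstream of it, with a fold enrichment of 6.77 and 26 fragments (17 to 38.1), and a smaller one at chr17:34263116-34263277 on an internal start, with a fold enrichment of 4.31 and 16 fragments. Both summits were intronic. H2-Aa, the alpha chain that pairs with H2-Ab1, and H2-Eb2 had no promoter peak, and their nearest peak, in both cases that of H2-Eb1, was 17915 and 19752 bp away.

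The promoters of H2-Eb1 and H2-Aa are given in the same way, as classical class II genes with and without a peak. H2-Eb1 is chr17:34305617-34305916 on the plus strand and H2-Aa is chr17:34287774-34288073 on the minus strand, both RefSeq windows on GRCm38.p6. Capitals mark CTGATTGG, the CCAAT form of ATTGG and TGACGTCA, the full CREB site.
H2-Eb1: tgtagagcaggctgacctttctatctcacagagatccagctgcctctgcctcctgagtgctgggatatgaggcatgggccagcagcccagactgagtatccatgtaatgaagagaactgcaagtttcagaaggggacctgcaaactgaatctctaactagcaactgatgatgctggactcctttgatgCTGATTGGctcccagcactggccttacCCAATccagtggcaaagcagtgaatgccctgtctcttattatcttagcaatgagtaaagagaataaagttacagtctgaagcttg
H2-Aa: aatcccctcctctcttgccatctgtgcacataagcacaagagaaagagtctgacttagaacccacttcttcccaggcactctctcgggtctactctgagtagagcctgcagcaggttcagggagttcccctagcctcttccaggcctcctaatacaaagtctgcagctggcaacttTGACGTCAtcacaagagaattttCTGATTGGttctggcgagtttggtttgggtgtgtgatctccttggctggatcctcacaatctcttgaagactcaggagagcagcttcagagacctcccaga
The H2-Aa window held TGACGTCA followed by the Y box, their first bases 23 apart, and none of its 300 bases lay under a peak. The H2-Eb1 window held the Y box and no TGACG, had no CpG, and 176 of its bases lay under the peak.

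The peptide editors DM and DO are class II relatives that stay inside the cell. DM exchanges peptides on class II molecules and DO inhibits DM. By fold enrichment (8.93), H2-DMb1, a beta chain of DM, had the highest class II peak, at chr17:34153038-34153327. It held 33 fragments (22.7 to 46.3) against 2.81 expected, with a −log10 q of 21.7. Its summit lay 63 bp inside the gene. H2-DMa, the alpha chain, had 4 peaks near its annotated starts. The GENCODE gene begins in the CpG-rich promoter region of Brd2, which encodes a bromodomain protein, and 2 of the 4 peaks, with fold enrichments of 5.44 and 5.73, lay within 1 kb of a Brd2 TSS as well. The RefSeq starts of H2-DMa lie 3291 and 5977 bp further on, the nearer of them under the wider of these shared peaks, which spans 1900 bp. The strongest of the 4 by fold enrichment (8.40), at chr17:34135333-34135706 on an internal exon, was not shared. It held 65 fragments (50.2 to 82.8) and had a −log10 q of 37.4, both above those of H2-DMb1. The shared peaks held 73 and 76 fragments. H2-DMb2, H2-Oa and H2-Ob had none, at 3279, 3235 and 9385 bp from the nearest peak.

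Of the genes that load class I molecules, B2m encodes the light chain common to all of them. Its peak was the second highest of any member by fold enrichment and the highest by fragments and −log10 q. It spanned 1268 bp at chr2:122147360-122148627, where 119 fragments (98.6 to 142) against 6.93 expected gave a −log10 q of 96.7 and a fold enrichment of 15.1. This was the percentile 94.2 of coding promoter peaks. Its summit lay 89 bp before the gene start. The B2m promoter, the strongest that no other coding gene shares, is the RefSeq window chr2:122147437-122147736 of GRCm38.p6 on the plus strand, with GAAANNGAA, TGACG and ATTGG in capitals.
B2m: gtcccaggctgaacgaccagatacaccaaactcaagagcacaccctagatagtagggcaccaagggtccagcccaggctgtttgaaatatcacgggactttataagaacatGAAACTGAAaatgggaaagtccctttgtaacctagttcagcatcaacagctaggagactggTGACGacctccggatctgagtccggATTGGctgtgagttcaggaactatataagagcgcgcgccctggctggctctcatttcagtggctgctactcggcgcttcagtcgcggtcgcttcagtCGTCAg
All 300 bases lay under the peak, and TGACG and ATTGG began 25 bases apart.

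Tap1, a subunit of the peptide transporter, had a peak of 934 bp at chr17:34187289-34188222 with a fold enrichment of 8.76 and 55 fragments (41.4 to 71.6). It is shared with the divergent gene Psmb9, an immunoproteasome subunit, and its summit lay 114 bp before the Tap1 start in an exon of Psmb9. Tap2, the other subunit, had no peak on its first TSS, but one over an internal start 970 bp into the gene with a fold enrichment of 4.75 and 23 fragments (14.6 to 34.5) and one further in with a fold enrichment of 3.26. For Tapbp, the peak at the GENCODE gene start had a fold enrichment of 9.10 and 86 fragments (68.8 to 106), but it is shared with Zbtb22, which encodes a zinc finger protein. The RefSeq start of Tapbp lies 3579 bp further on, and the peaks nearest to it, the first with its summit 615 bp inside the gene, had fold enrichments of 2.55 and 4.26. H2-Ke6 had a peak of 3.58 on its start and one of 2.82 inside the gene.

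The transactivators had no promoter peak. At Nlrc5 the nearest peak was 2704 bp from a TSS with a fold enrichment of 3.41 and 12 fragments, and a second lay 57.8 kb into the gene with 6.58. At Ciita, which is transcribed from several promoters in different cell types, none of the 8 annotated starts had a peak within 1 kb. The nearest was 14410 bp away with a fold enrichment of 6.04 and 34 fragments, and 3 peaks in the gene body, at 30.6, 41.3 and 42.9 kb, had fold enrichments of 3.20, 3.63 and 5.25. At Cd74 the nearest peak was 2583 bp from a TSS, 2.85 kb into the gene, with a fold enrichment of 5.97 and 22 fragments. The sequence within 500 bp of the gene start was fully unique in all 3, and their other annotated starts were not checked.

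Other genes of the pathway are given by list, to be read beside the 53.7% of all coding genes with a promoter peak and the 82.8% of those with a CpG ratio over 0.6. All 7 genes of the RFX, NF-Y and CREB proteins that assemble on MHC promoters had a promoter peak, with fold enrichments of 8.89 to 15.8 and a median of 11.5 (Rfx5 15.1 and Creb1 15.8), and 6 of them had a CpG ratio over 0.6. So did all 7 genes of interferon gamma signalling, each with a ratio over 0.6, from 7.18 to 16.3 with a median of 9.31 (Irf1 9.31 and Jak1 16.3). Of 10 further genes of class I processing, such as proteasome subunits and chaperones, 9 had one, with a median of 10.5. The exception was Psmb8, an immunoproteasome subunit. Of the 10, 4 had a CpG ratio over 0.6, and the Psmb9 peak is the one shared with Tap1. Of 4 annotated genes of class II processing, 3 had one, the exception being Ctss, the protease cathepsin S that trims the invariant chain. Of 37 genes of the neighbouring class III region, 24 had one (64.9%), with a median of 7.57, and Tnf, Lta, Ltb and the complement gene C4b did not. That list was made by hand, and of all 64 coding genes between the class II cluster and H2-D1, 28 had one (43.8%). Beside these, the background over all coding genes with a peak was a median of 9.86.

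Sequence features were counted in the window from 250 bases before to 50 after the gene start, on both strands. Only the exact letters were counted, so a gene without them may hold another form of the site. The Y box CTGATTGG was found in 17 of 41 members (41.5%) and in 5.00% of all coding genes. It was found in 11 of 24 class I genes, 4 of 9 class II genes and 2 of the 7 loading and regulator genes, and not in H2-Ke6. Related members are copies of each other and share sequence, so these are not independent cases. Of these genes, 4 had a promoter peak (Tapbp, H2-K1, Tap1 and H2-Eb1), while of the 24 members without the letters 12 had one. These windows start from GENCODE, and H2-D1, whose RefSeq window holds the Y box, counts among the 24. In the RefSeq windows of 34 members, 4 of 18 with the Y box had a peak (H2-D1, H2-Eb1, H2-K1 and Tap1) and 9 of 16 without it. Of the 17 by GENCODE, 8 were M genes without a peak. ATTGG, which the Y box contains, was in 29 members and 39.0% of coding genes. TGACG was in 14 members and 23.1% of coding genes, and TGACGTCA, which contains it, in 2 members (H2-DMa and H2-Aa) and 2.43%. GAAANNGAA was in 6 members and 8.47%, and GGGATTCCC in 3 members (H2-K1, H2-Q6 and H2-Q7) and 0.433%. In the RefSeq windows, which hold 34 of the 41 members, H2-D1 joined these 3.

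Because only uniquely aligned reads of 75 nucleotides were kept, the share of 75-base sequences found once in the genome was computed for each gene start and 500 bp to either side. The median was 100% over the 41 members and 99.5% over class I, and 37 of 41 were at 90% or more. The 4 below were H2-Q6 (39.3%), H2-T23 (65.5%), H2-Q7 (70.3%) and H2-DMb1 (88.7%), of which H2-DMb1 alone had a promoter peak. Of all coding genes below 90%, 17.3% had one. The H2-Q6 and H2-Q7 starts were 98.2% and 98.0% identical to the pseudogene H2-Q5, and H2-T23 was 94.5% identical to a stretch at H2-T-ps. H2-T22 was 94.6% identical to the stretch at H2-T10 and still 96.4% unique. H2-T10 had no promoter peak, and a peak in its intron had a fold enrichment of 3.68 and 13 fragments. For H2-Q6, H2-Q7 and H2-T23 a missing peak and unplaced reads cannot be told apart. The share counts single sequences with exact letters, so it leaves out the pairing of reads and mismatches. None of the 11 annotated H2- pseudogenes had a promoter peak. The other 14 class I genes without a peak were all over 90% unique in this reference.

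**Figure D3:**
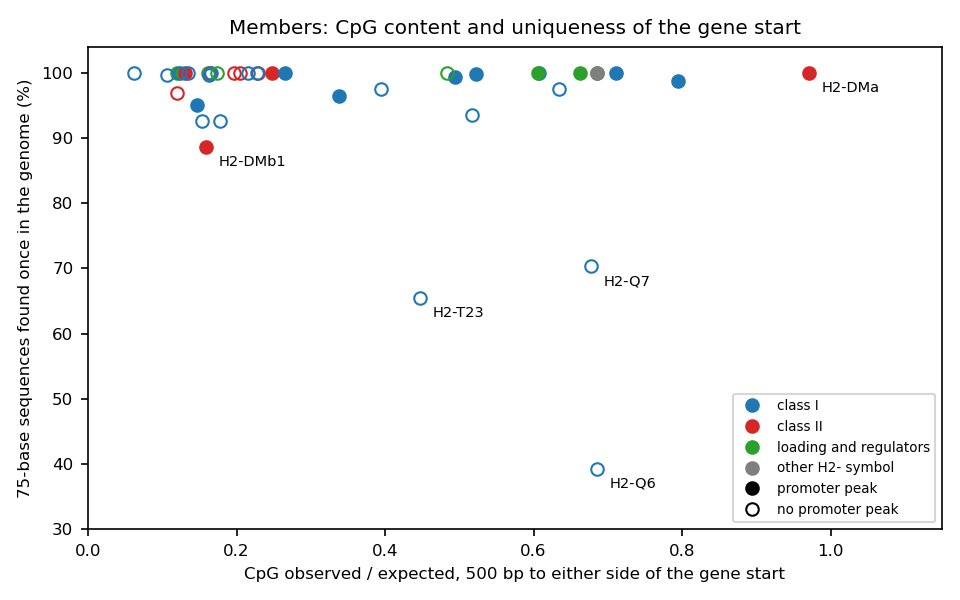
CpG ratio (horizontal) and percent of 75-base sequences found once in the genome (vertical) at the start of each of the 41 members, coloured by class, with filled circles for genes with a promoter peak. Most members lie at 90% or above; H2-Q6, H2-Q7 and H2-T23 are the low ones without a peak.

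From the first to the last H2- gene, chr17:33996017-37483552, the list held 179 peaks, or 51.3 per Mb, against 27.1 per Mb over chromosome 17. Peaks over 1 kb from any TSS of a protein-coding gene were at 27.2 per Mb against 20.1, and starts of noncoding genes were not set apart. The span is denser in genes, with 173 coding genes in 3.49 Mb against 1056 in 91.7 Mb of chromosome 17. Within it, 78 of the 173 coding genes had a promoter peak (45.1%), a lower share than the 53.1% of chromosome 17. The class II cluster held 14 peaks (56.2 per Mb), of which 3 were away from a coding TSS (12.0 per Mb). The Q genes held 3 peaks (19.5 per Mb), the T genes 11 (59.6 per Mb) and the M genes 30 (25 per Mb). The stretch between the class II cluster and H2-D1 held 52 (56.4 per Mb). Along the span, bins of 100 kb held 0 to 13 peaks, and the bin of the last Q genes was 46.9% unique. Of the distal peaks near members, those picked here after their values were seen were one of 71 fragments before H2-D1 at chr17:35258005-35258464, with a fold enrichment of 6.90, and another of 58 fragments before H2-T24 at chr17:36023744-36024391, with 8.90.

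**Figure D4:**
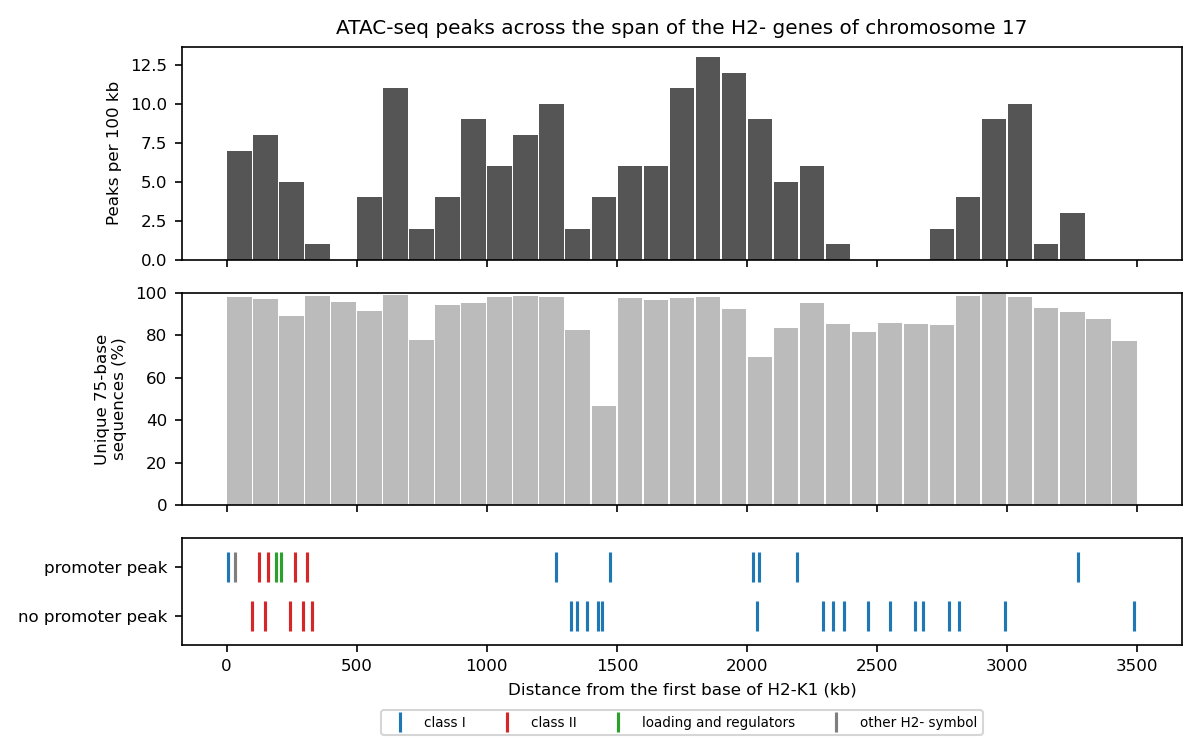
Peaks per 100 kb (top), percent of 75-base sequences found once in the genome (middle) and members with and without a promoter peak (bottom) along the span of the H2- genes, in kb from the first base of H2-K1. The bins of 11 to 13 peaks hold the start of no member, and the M genes around 2300 to 2700 kb stand in bins of 0 to 2 peaks.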

How the data were processed

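Paired-end reads of 75 nucleotides were mapped by the authors to mm10 (STAR 2.5.3a) end to end, reads with more than 1 location and PCR duplicates (Picard) were dropped, and MACS2 2.1.1.20160309 was run on the fragments of 1 library, with versions as in the submitters' processing notes. The labels give 12 PCR cycles. No Tn5 shift of fragment ends is described. Among the deposited values, the fold enrichment is a ratio, p and q are written as −log10, and the score, a rounded −log10 q, was not used. The deposited start, end and summit were used as positions, counted here from 1.

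Peaks were compared with GENCODE M21 transcript starts and RefSeq promoter windows on the same build. Summit pileups were solved by bisection and given exact 95% Poisson intervals, which cover counting error only, as PCR copies without molecular identifiers are not independent. The solver and the count of unique 75-base sequences, which ran over all placed chromosomes, were tested on simulated data. Gene starts were matched to chromosome 17 with BLAST 2.17.0 over at least 300 bp at an e-value of 1e-10. Work was done in Python 3.11.15 with numba 0.67.0, SciPy 1.17.1, pandas 2.3.3, matplotlib 3.10.9 and NumPy 2.4.6.

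The members and lists were chosen with earlier results of these data known. Named were all members with a promoter peak, the main genes of each role, up to 6 examples a list and genes sharing a peak. The list gene Ifi30 did not match the annotation. No test was made, since there is 1 library. Alternatives were stricter peak thresholds, other distances and starts, other sequence lengths and other windows.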

Additional observations from a re-analysis of the deposited data

How the results depend on the processing

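Of 54 alternative values, 49 stayed within 1.5 times the reported count or value. Asking for a fold enrichment of at least 5 left 4 class I genes with a promoter peak in place of 7, where 48.8% of coding genes had one, and 30.4 peaks per Mb across the span of the H2- genes in place of 51.3, against 16.8 for chromosome 17. With motifs counted 250 bases to either side of the gene start, GGGATTCCC was in 5 members. In that window TGACG stayed in 14 members (34.1%), beside 32.5% of coding genes in place of 23.1%. With RefSeq starts, chosen after seeing the data, TGACGTCA was in 1 member and GAAANNGAA in 3. These starts cover 34 of the 41 members, and Nlrc5 and H2-T24, which hold GAAANNGAA, are not among them. The lower count of GAAANNGAA thus reflects fewer genes as well as other starts. For TGACGTCA the lower count reflects another start only, since H2-DMa is among the 34 and its RefSeq windows lack these letters. Over all settings the members with a peak ranged from 11 (fold enrichment of at least 5) to 23 (5 kb, 62.8% of coding genes). Class II ranged from 3 to 6, the 3 coming from settings that covered 8 of its 9 genes. H2-Q10 was lost at a −log10 q of 2, and H2-T3 too at 5. H2-Q10 rests on 11 fragments and the lowest summit in the list on 10; other depths were not tested. No paired analysis was possible because there is 1 library.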
